A study of Homo sapiens with 6 samples.

Results

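The genes described are 10 named feedback genes and chemokines of the NF-kB pathway, listed by gene name, with no threshold on a measured value, at a time when earlier results of these data were known: NFKBIA, TNFAIP3, RELB, NFKB2, CXCL1, CXCL2, CXCL3, CXCL8, CXCL16 and CCL20. Of these, 9 had a row among the 30676 genes of the deposited table, and CXCL1 was not analysed here. A filter on low values, a mean of at least 0.5 FPKM (a level per length of gene and per library size) over all libraries, left 13721 genes for testing and kept 7 of the 9, so that CXCL8 and CCL20 are described by their values. The libraries came from cells labelled HCT116, a human colorectal cancer line labelled WT, grown in RPMI-1640 with fetal bovine serum. The 3 libraries of the GIA group came from cells given GIA, which the series title names a genistein isoflavonoid alkaloid, at 10 µM, and the 3 control libraries from cells given DMSO at 0.1%. All 6 were held at 1% oxygen for 24 hours, so both groups were hypoxic and a response to low oxygen itself was not measured. Separate cultures are not stated in the labels, and the p-values below therefore rest on the spread between these libraries, which may be technical. A DMSO content is given only for the controls.

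NF-kB is a family of paired transcription factors that inhibitors of the IkB family hold in the cytoplasm until an upstream kinase marks the inhibitor for destruction. The freed factors switch on genes for chemokines, which draw neutrophils and lymphocytes to a tissue, together with genes for their own inhibitors. In this way NFKBIA, TNFAIP3, RELB and NFKB2 both report on the pathway and regulate it. In the gut epithelium the pathway is known for the chemokine response to bacteria and to cytokines such as TNF.

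Several defining markers of the labelled line were near 0 in all 6 libraries. EPCAM and CDH1, which encode epithelial adhesion proteins that HCT116 cells are known to make, had at most 0.335 and 0.0490 FPKM. Of the other listed epithelial markers, KRT20 and CLDN3 had at most 0.0437 and 0.542 FPKM, and CLDN4 had 0.818 to 1.02 FPKM. CDX1 and CDX2 were not analysed here. Among markers looked at after their values were seen, the gut epithelial genes VIL1 and LGALS4 had at most 0.0122 and 0.0751 FPKM. AXIN2, a beta-catenin target, had at most 0.0787 FPKM, although HCT116 is known to carry an activating CTNNB1 mutation. The keratin genes KRT8, KRT18 and KRT19 were high, at 134 to 151, 219 to 274 and 26.2 to 29.9 FPKM. So were the mesenchymal gene VIM, at 147 to 160 FPKM, and the matrix genes LUM, at 157 to 197 FPKM, and DCN, at 11.2 to 16.001 FPKM. VIM and LUM were also looked at after their values were seen, while DCN was a listed fibroblast marker. Of the other fibroblast markers in the table, PDGFRB had 3.77 to 5.38 and COL1A1 2.23 to 3.17 FPKM, while COL3A1 and THY1 had at most 0.00766 and 0.133 FPKM. Of the 4 leukocyte markers in the table, CD68, a macrophage marker, had 17.0 to 24.6 FPKM, and PTPRC, CD14 and LYZ had at most 0.0162, 0.174 and 0.0310 FPKM. The summed level of 4 endothelial markers was at most 0.188 FPKM. These values held in both groups, and the levels given below are those of the cells labelled HCT116. Library totals were 55725249 to 67835059 estimated counts, with all 3 GIA totals above all 3 DMSO totals. GIA library 2 stood apart from the rest by the chi-square per degree of freedom, computed on counts divided by 4. It was 5.995 to 9.74 against each other library, and 2.78 to 4.34 among the other 10 pairs. The root-mean-square difference in log2 counts relative to library size did not set GIA library 2 apart. That difference was 0.377 to 0.433 for its pairs and 0.357 to 0.421 among the other 10.

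The sequences that link these genes are short matches to the kappa B site, which NF-kB binds. They are shown because genes with nearly the same match had very different levels. The part of a match in these levels was not tested. RefSeq promoters on GRCh38.p14 were found for 7 of the 9 genes, and not for RELB or CXCL16. In the 250 bases before the start, read on both strands, a match to the kappa B consensus was found for 6 of the 7 genes, against 9.96% of all 35116 promoters. The shorter motif GGAATTTCC, which lies inside the consensus matches of CXCL2, CXCL3 and NFKBIA and is the match shown for CXCL8, was found for 4 of the 7 genes, against 0.413% of all promoters. A gene was counted if any of its promoters matched (9 promoters for the 7 genes), while the shares of all promoters count single promoters. The genes were chosen as known NF-kB targets, so these shares describe the choice. In the lines that follow, the match is in capitals and each sequence runs 5′ to 3′ on the strand of its gene.
CXCL2: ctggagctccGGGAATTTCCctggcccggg
CXCL3: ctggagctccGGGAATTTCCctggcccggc
CXCL8: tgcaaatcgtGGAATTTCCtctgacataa
NFKBIA: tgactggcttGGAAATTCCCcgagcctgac
TNFAIP3: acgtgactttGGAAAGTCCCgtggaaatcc
TNFAIP3: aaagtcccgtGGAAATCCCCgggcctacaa
CCL20: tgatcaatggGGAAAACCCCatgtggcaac
The CXCL2 stretch lies at chr4:74099254-74099283 and that of CXCL3 at chr4:74038749-74038778, both on the minus strand. That of CXCL8 lies at chr4:73740468-73740496 on the plus strand, and that of NFKBIA at chr14:35404811-35404840 on the minus strand. The overlapping TNFAIP3 stretches lie at chr6:137867182-137867211 and chr6:137867194-137867223 on the plus strand, and that of CCL20 at chr2:227813753-227813782 on the plus strand. The stretches of CXCL3 and CCL20 and the end of the second TNFAIP3 stretch fall inside the deposited gene models, which start earlier than the RefSeq models. In NFKB2 the matches, among them GGGAATTCCC, lie in windows before later start sites, inside the deposited gene. A match is a run of letters only, and binding was not measured.

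The levels of the 9 genes covered a wide range per length of gene, and their order was the same in both group means. NFKB2 was highest with a mean of 39.8 FPKM over the 6 libraries, followed by NFKBIA with 19.8, CXCL16 with 14.5, CXCL2 with 7.32, RELB with 6.34, TNFAIP3 with 5.55, CXCL3 with 0.995, CXCL8 with 0.362 and CCL20 with 0.00668. Only CXCL2 and RELB, among neighbours in that order, had overlapping ranges. How reads were split between CXCL2 and CXCL3, near copies in sequence, is uncertain, and so is the difference between their levels. CXCL2 and CXCL3, which share the match GGGAATTTCC, were 7.32 and 0.995 FPKM. CXCL8 and NFKBIA also share GGAATTTCC, read on opposite strands, and were 0.362 and 19.8 FPKM.

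**Figure D1:**
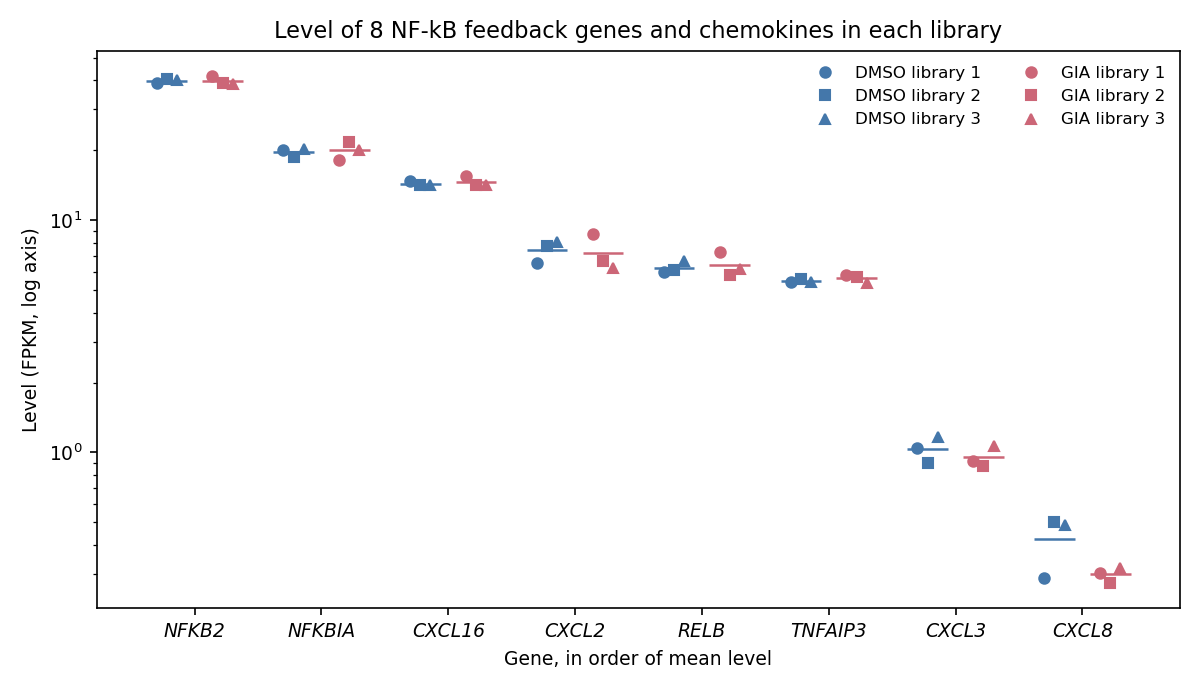
Each point is the FPKM of 1 gene in 1 library on a log axis, with DMSO in blue, GIA in red and short lines at the group means of 3 libraries. The groups overlap for each of the 8 genes drawn, and CXCL8, the lowest, lies between 0.275 and 0.5002 FPKM, while CCL20, at 0 in 5 libraries, is left out.

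None of the 7 tested genes passed the threshold of an adjusted p under 0.05 between GIA and DMSO. With the quasi-likelihood test of edgeR, 0 of 13721 genes were called (0%) and 635 had an unadjusted p under 0.05 (4.63%). Of the 7 genes, 0 were called and 0 had an unadjusted p under 0.05, by edgeR, DESeq2 or limma. The groups did not overlap for 0 of the 7, against 11.2% of all tested genes. The log2 fold changes, GIA over DMSO, were positive for 4 and negative for 3, with a median of 0.02, against 0.00012 over all tested genes. Without GIA library 1, 0 of the 7 were called (0.00729% of all tested genes) and 0 had an unadjusted p under 0.05 (10.3% of all). In that fit 5 of the 7 fold changes were negative, with a median of -0.0477. In GIA library 1, 5 of the 7 had their highest counts relative to library size, so leaving it out lowers their fold changes. With any other library left out the median was positive, from 0.0041 (DMSO library 2) to 0.0419 (GIA library 3).

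NFKBIA encodes IkB-alpha, the inhibitor that is destroyed and made anew in each round of activation (chromosome 14, 35401513 to 35404749, minus strand). It had 19.99, 18.6 and 20.2 FPKM in DMSO libraries 1 to 3 and 18.2, 21.8 and 20.1 FPKM in GIA libraries 1 to 3. The GIA libraries held both the lowest and the highest value, and the DMSO values lay between them. The log2 fold change of NFKBIA by edgeR was 0.03, with an SE of 0.07, a 95% interval of -0.12 to 0.18 and an adjusted p of 0.954. The sign turned when GIA library 2 (-0.03) or DMSO library 2 (-0.0072) was left out.

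TNFAIP3 encodes A20, a ubiquitin-editing enzyme that shuts the pathway off upstream of the inhibitors (chromosome 6, 137867214 to 137883312, plus strand). Its levels were 5.44, 5.58 and 5.40 FPKM with DMSO and 5.80, 5.71 and 5.39 FPKM with GIA. In FPKM, GIA libraries 1 and 2 lay above all DMSO libraries and GIA library 3 just below them. The spread was 1.08 times between the lowest and the highest library. In counts relative to library size, DMSO library 3 was the lowest. GIA and DMSO differed by 0.04 log2 units (SE 0.06, interval -0.09 to 0.17, adjusted p = 0.925 by edgeR). Leaving out GIA library 1 gave 0.0126, the lowest such value, and leaving out GIA library 3 gave 0.0652, the highest. An antisense gene overlaps TNFAIP3, and the sources used here do not say whether the counting used strand.

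NFKB2 encodes p100, which is cut to the subunit p52, and RELB encodes the partner of p52 in the slower, non-canonical branch of the pathway. NFKB2 (chromosome 10, 102394110 to 102402524, plus strand) had 38.9, 40.5 and 40.3 FPKM with DMSO and 41.8, 38.8 and 38.6 FPKM with GIA. GIA library 1 was the highest and the other two GIA libraries the lowest. Its log2 fold change was -0.0074 (SE 0.04), and the interval of -0.10 to 0.09 was the narrowest of the 7. RELB (chromosome 19, 45001449 to 45038198, plus strand) had 6.01, 6.09 and 6.66 FPKM with DMSO and 7.29, 5.82 and 6.16 FPKM with GIA. GIA library 1 was again the highest, and for RELB GIA library 2 was the lowest. The log2 fold change of RELB was 0.04 (SE 0.10, interval -0.18 to 0.26, adjusted p = 0.956), and -0.06 without GIA library 1. For NFKB2 the sign turned without DMSO library 2 (0.0041), GIA library 2 (0.01) or GIA library 3 (0.01).

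CXCL2 and CXCL3 encode closely related neutrophil-attracting chemokines, whose genes lie near each other on chromosome 4. CXCL2 (74097040 to 74099195, minus strand) had 6.56, 7.71 and 8.03 FPKM with DMSO and 8.71, 6.65 and 6.23 FPKM with GIA. The GIA group held both extremes, and the SD over the 6 libraries (0.19 log2 units) was above that of 78.8% of tested genes. For CXCL2 the log2 fold change by edgeR, -0.05, had an SE of 0.14, an interval of -0.37 to 0.27 and an adjusted p of 0.961. It was -0.21 without GIA library 1 and turned positive without DMSO library 3 (0.0086), GIA library 2 (0.0081) or GIA library 3 (0.04). CXCL3 (74036589 to 74038807, minus strand) had 1.04, 0.899 and 1.17 FPKM with DMSO and 0.920, 0.872 and 1.07 FPKM with GIA. The ranges overlapped, with the highest value in DMSO library 3 and the lowest in GIA library 2. The log2 fold change of CXCL3, -0.11 with an SE of 0.19, had the widest interval of the 7, -0.54 to 0.32 (adjusted p = 0.931 by edgeR). Leaving out 1 library moved it to between -0.21 (GIA library 3 left out) and -0.01 (DMSO library 3 left out). CXCL2 and CXCL3 are near copies in sequence, and how the authors' counting split reads between them is uncertain.

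CXCL8 encodes interleukin 8, the main neutrophil chemokine of human epithelia (chromosome 4, 73740541 to 73743716, plus strand). It had 0.288, 0.5002 and 0.488 FPKM with DMSO and 0.304, 0.275 and 0.318 FPKM with GIA. DMSO libraries 2 and 3 lay above all GIA libraries, while DMSO library 1 lay among them. These values rest on 40, 71 and 78 estimated counts with DMSO and on 52, 47 and 53 with GIA. If 4 counts stand for 1 fragment, they are about 10, 18 and 20 fragments with DMSO and 13, 12 and 13 with GIA. The exact Poisson 95% intervals, which cover counting error only, then run from 4.80 to 18.4 fragments in DMSO library 1 and from 12.2 to 30.9 in DMSO library 3. With no filter on low values the edgeR estimate was -0.49 log2 units (SE 0.29, interval -1.17 to 0.18, unadjusted p = 0.130, adjusted p = 0.751). Over the fits that leave out 1 library it ranged from -0.71 without DMSO library 1 (unadjusted p = 0.0289, adjusted p = 0.839 by edgeR) to -0.36 without DMSO library 2, and each adjusted p was at least 0.740. In bulk RNA, fewer cells with the transcript and less of it per cell cannot be told apart.

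CXCL16 encodes a membrane-bound chemokine that also acts as a scavenger receptor (chromosome 17, 4733531 to 4739928, minus strand). Its levels were 14.7, 14.2 and 14.2 FPKM with DMSO and 15.5, 14.2 and 14.2 FPKM with GIA. Apart from GIA library 1, the libraries lay within 14.16 to 14.7 FPKM. The log2 fold change was 0.02 (SE 0.05, interval -0.10 to 0.14, adjusted p = 0.949), and -0.02 without GIA library 1. Genes on the other strand overlap both ends of CXCL16. CCL20 encodes the chemokine that attracts cells with the receptor CCR6 (chromosome 2, 227805739 to 227817556, plus strand). It had 4 estimated counts, 0.0401 FPKM, in DMSO library 2 and 0 in the other 5 libraries. A count of 0 allows up to 3 fragments, or 0.101 to 0.123 FPKM by library if 4 counts stand for 1 fragment, so no fold change is given.

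**Figure D2:**
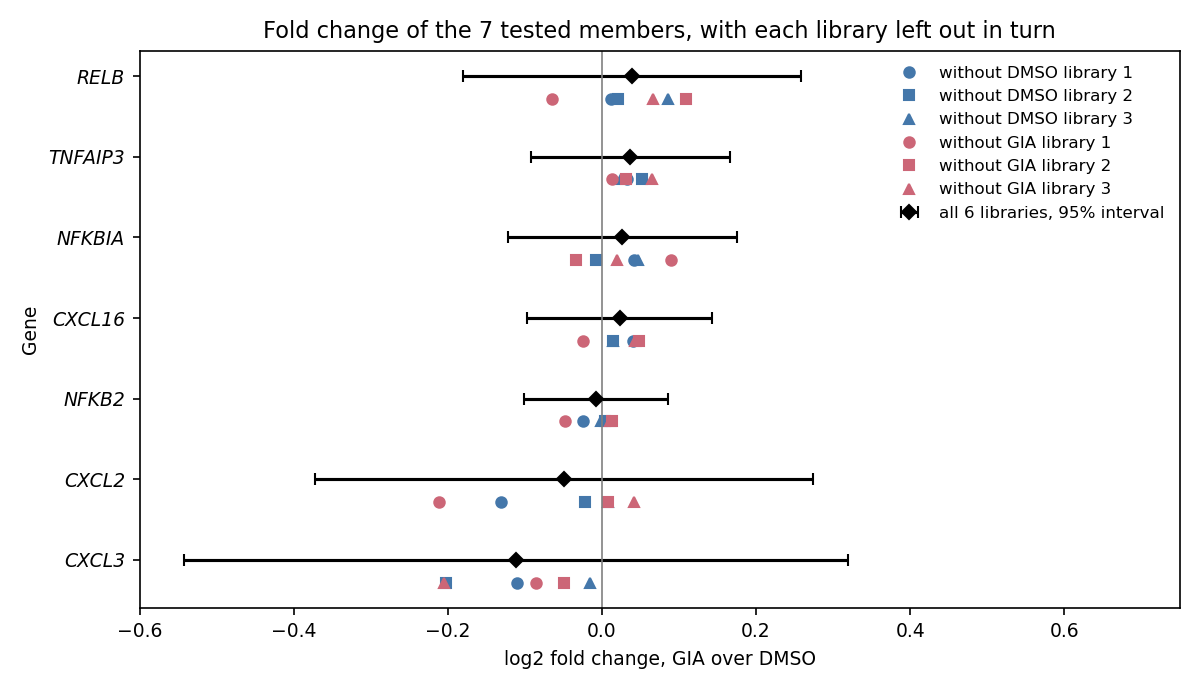
Black diamonds are the log2 fold changes, GIA over DMSO, of the 7 tested genes by edgeR with 95% intervals, and coloured points below each are the values with 1 library left out. All 7 intervals include 0, and the point without GIA library 1 is the lowest for RELB, TNFAIP3, CXCL16, NFKB2 and CXCL2 and the highest for NFKBIA.

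Several members shared their highest library. Of the 7 tested genes, 5 (71.4%) had their highest log2 CPM (counts relative to library size) in GIA library 1: TNFAIP3, RELB, NFKB2, CXCL2 and CXCL16. Over all tested genes 16.6% were highest in that library, and 14 of 58 other tested pathway genes (24.1%). NFKBIA was lowest in GIA library 1 and had its maximum in GIA library 2, and CXCL3 was highest in DMSO library 3. The deviation of GIA library 1 from the 6-library mean was 0.26 log2 units for CXCL2 and 0.21 for RELB, and 0.07 to 0.10 for TNFAIP3, NFKB2 and CXCL16. This grouping was noticed in these values, and it was not tested. The closest profiles among the members were those of NFKB2 and CXCL16, with a root-mean-square difference of 0.038 log2 units over 6 libraries. TNFAIP3 was about as near, at 0.039 from NFKB2 and 0.042 from CXCL16. Genes that vary little are near each other by this measure. The SD over the 6 libraries was 0.047 for NFKB2, 0.055 for CXCL16 and 0.043 for TNFAIP3, against 0.19 for CXCL2. The farthest were CXCL2 and CXCL3, with 0.24, and NFKBIA and CXCL2, with 0.24.

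**Figure D3:**
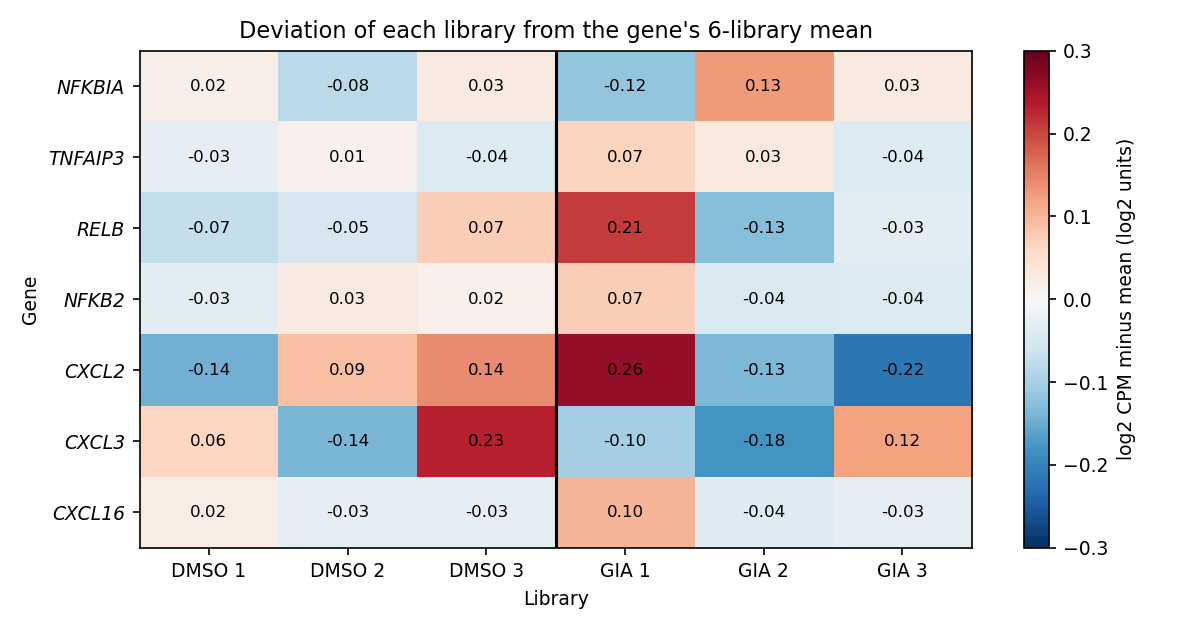
Each cell gives the log2 CPM of 1 tested gene in 1 library minus the mean of that gene over the 6 libraries, red above and blue below. GIA library 1 is above the mean for 5 genes, up to 0.26 for CXCL2, and below it for NFKBIA and CXCL3.

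Candidates for likeness were genes whose SD over the 6 libraries was at least that of the member divided by 2. The profiles nearest to NFKBIA were those of RNF169, SLC25A36 and OIP5-AS1. Their root-mean-square differences were 0.014, 0.015 and 0.017 log2 units over 6 libraries, and the median over 11832 candidates was 0.13. For CXCL8 the nearest were LAGE3P1, AC083899 and HNRNPA1P33, with 0.13, 0.14 and 0.14 log2 units and a median of 0.48 over 2997 candidates. The profile of CXCL8 rests on few fragments. All of these likenesses are descriptions over the same 6 libraries.

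The rest of the pathway was described with 101 other genes, of which 81 were in the table and 58 were tested. By edgeR 0 of the 58 were called, with 3 at an unadjusted p under 0.05 (5.17%, against 4.63% of all tested genes), and by DESeq2 0 were called. Their median log2 fold change was -0.01, with 25 positive and 33 negative. The groups did not overlap for 5 of the 58 (8.62%, against 11.2%). TNFRSF1A and CXCR4 were higher with GIA (5.63% of all tested genes were), and CYLD, PTGS2 and LCN2 lower (5.60% of all). RNA of all 5 listed NF-kB subunits and of all 9 listed kinases and adaptors of the IkB kinase pathway passed the filter on low values. Of the 16 receptors and adaptors with values, 12 passed, while TNFRSF1B, IL1R1, TLR3 and TLR4 fell under the filter. Protein was not measured. RELA, the main activating subunit, stood at 20.4 ± 0.515 FPKM in the DMSO libraries and 20.1 ± 0.109 FPKM in the GIA libraries (SD over 3 libraries), and IRAK1, a kinase below the interleukin 1 receptor, 82.1 ± 3.12 and 77.3 ± 8.11. Among the 9 kinases of the IkB kinase pathway and their adaptors the highest level was that of TAB2, at 11.2 ± 0.0707 and 11.4 ± 0.630 FPKM.

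Of 12 tested receptors and adaptors, 4 were positive and 8 negative. TNFRSF1A, the main receptor for TNF, had 26.9, 26.9 and 29.3 FPKM with DMSO and 29.5, 32.1 and 30.4 FPKM with GIA. The groups lay next to each other without overlap, with a log2 fold change of 0.14 (SE 0.05, unadjusted p = 0.0137, adjusted p = 0.874 by edgeR). The unadjusted p of TNFRSF1A by edgeR was above 0.05 without DMSO library 1 (0.0577) or DMSO library 2 (0.0563). TRAF3, which restrains the non-canonical branch, had -0.11 (SE 0.05, unadjusted p = 0.0635, adjusted p = 0.874 by edgeR). With 1 library left out it ranged from -0.16 (GIA library 1) to -0.08 (GIA library 2). Of 5 tested NF-kB subunits, NFKB2 and RELB included, 1 was positive and 4 negative, with NFKB1 at -0.07 (SE 0.06) and REL at -0.07 (SE 0.11). Of 6 inhibitors and modulators of the IkB family, NFKBIA included, 5 were positive. NFKBIZ, a nuclear modulator, had 0.12 (SE 0.07), and BCL3, the highest in level of those other than NFKBIA at 13.3 ± 0.764 FPKM with DMSO and 14.1 ± 1.196 with GIA, had 0.09 (SE 0.07). Of 8 tested ubiquitin editors and feedback regulators, TNFAIP3 included, 3 were positive and 5 negative. BIRC3, a ubiquitin ligase, was the highest in level, at 25.5 ± 0.652 and 26.1 ± 2.14 FPKM. CYLD, a deubiquitinase that restrains the pathway like TNFAIP3, had 2.34, 2.52 and 2.36 FPKM with DMSO and 2.28, 2.01 and 2.08 FPKM with GIA. All GIA libraries lay below all DMSO libraries, with a log2 fold change of -0.18 (SE 0.07, unadjusted p = 0.0244, adjusted p = 0.874). The unadjusted p of CYLD by edgeR was above 0.05 without DMSO library 2 (0.0946), GIA library 2 (0.0646) or GIA library 3 (0.0665). By limma on log2(FPKM + 0.5) it was 0.0625. ZC3H12A, which degrades cytokine transcripts, had 0.15 (SE 0.10), and 0.06 without GIA library 2. TAB1 had -0.05 (SE 0.06) and TAB2 0.03 (SE 0.04).

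Ligands and other chemokines were few. TNF had at most 0.137 FPKM and IL1B at most 0.168. IL18 was the highest ligand, at 62.2 ± 3.08 FPKM with DMSO and 59.9 ± 3.97 with GIA, a log2 fold change of -0.06 (SE 0.06), and IL6 had -0.15 (SE 0.17). Among 3 tested chemokines outside the named set, the lymphocyte chemokine CCL5 was the highest, at 19.5, 18.2 and 17.7 FPKM with DMSO and 15.5, 26.2 and 21.0 FPKM with GIA. GIA library 1 was the lowest and GIA library 2 the highest, and the log2 fold change of 0.18 (SE 0.15) became -0.01 without GIA library 2. CXCL11, a chemokine induced by interferon, had -0.23 (SE 0.26), with -0.43 without GIA library 1 and -0.05 without GIA library 3. CXCR4 had 6.27, 6.21 and 6.57 FPKM with DMSO and 6.87, 8.85 and 6.98 FPKM with GIA. The groups did not overlap, with a log2 fold change of 0.25 (SE 0.10, unadjusted p = 0.0414, adjusted p = 0.874), and 0.13 without GIA library 2. The summed level of 5 fibroblast markers was 17.7 to 18.9 FPKM with DMSO and 17.8 to 24.6 with GIA, and DCN was also highest in GIA library 2, at 16.001 FPKM. Their part in the value of CXCR4 was not tested. ACKR3, a decoy receptor, had 0.06 (SE 0.16), and -0.16 without GIA library 2. CXCR6, the receptor of CXCL16, had at most 0.0533 FPKM. ADAM10 and ADAM17, which release CXCL16 from the membrane, had log2 fold changes of 0.0024 (SE 0.04) and -0.08 (SE 0.07), and the level of ADAM10 was 5.62 ± 0.0820 FPKM with DMSO and 5.64 ± 0.235 with GIA. Of 10 other NF-kB targets 5 were positive and 5 negative. IER3, an early response gene, was the highest in level at 91.95 ± 2.02 and 93.97 ± 5.42 FPKM, while PTGS2, which encodes cyclooxygenase 2, had -0.14 (SE 0.07) and LCN2, an iron-sequestering defence protein, -0.11 (SE 0.07).

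**Figure D4:**
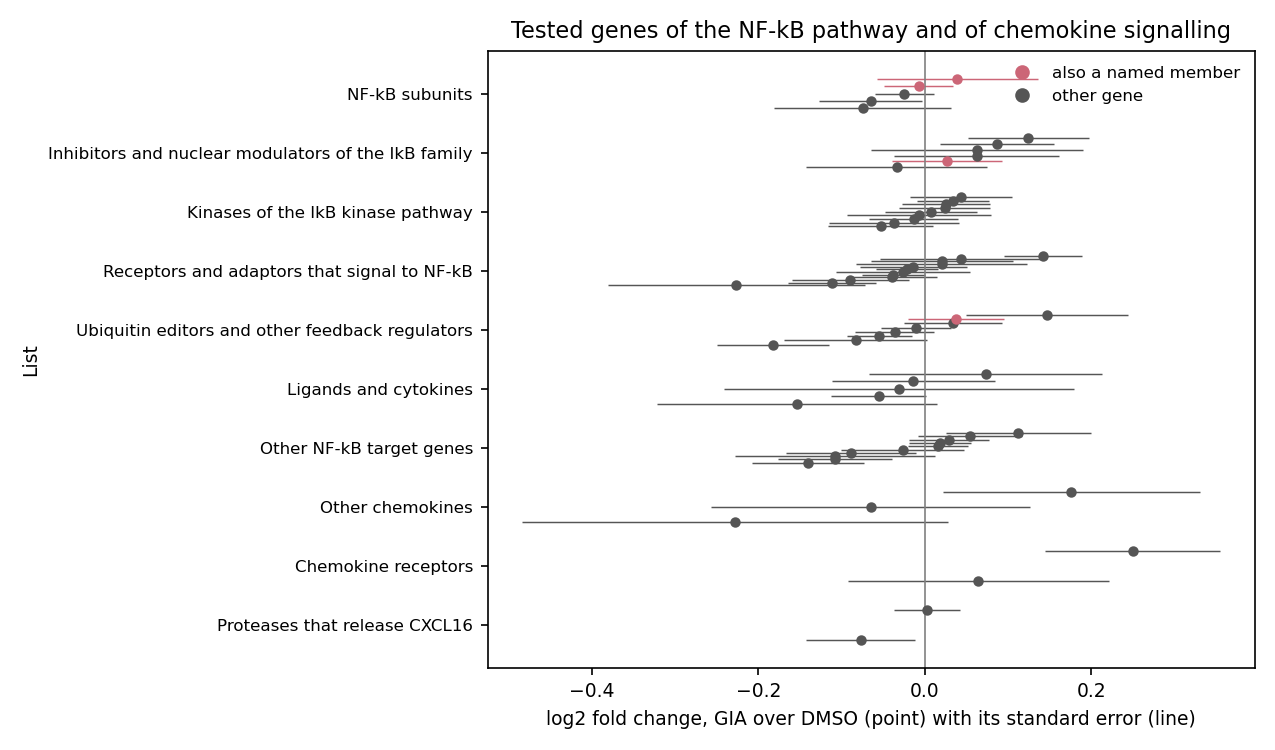
Points are the log2 fold changes, GIA over DMSO, of the tested genes in each list with their standard errors as lines, and red points are genes of the named set. Points of every list with more than 2 genes lie on both sides of 0, with CXCR4 at 0.25 the farthest to the right; the line of CXCL11, at -0.23, is the longest.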

How the data were processed

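The 6 libraries were strand-specific and made from TRIzol-extracted total RNA, per the labels' protocols. The submitters' processing notes name FastQC 0.10.1, cutadapt, HISAT2 2.2.1, StringTie 2.1.6, DESeq2 1.22.2 and GRCh38, with no role or order. The table deposited by the authors holds FPKM and counts for each gene and library, per the file headers. Among values from 2 to 9 the most common were 4 (6798 values) and 2 (5410), followed by 3 (4183), 8 (2845), 6 (2675) and 5 (2499). Lower values were not tallied. The deposited counts were taken as estimated counts, and what 1 fragment is worth is not known. Fragment numbers assume 4 counts, and a smaller worth would mean more fragments and narrower intervals. They were already whole.

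Genes at or above 0.5 FPKM on average were tested with the quasi-likelihood test of edgeR 4.0.16 (R 4.3.3), two-sided, TMM scaling, no covariate, Benjamini-Hochberg adjustment over 13721 genes and a threshold of 0.05. Each SE was the fold change divided by the root of F. Profiles are log2 CPM with a prior count of 2. Alternatives used DESeq2 1.42.0, limma 3.58.1 on log2(FPKM + 0.5), other scalings, filters and pseudocounts, a replicate block and leaving out each library. The test was tried on simulated counts.

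The members and lists were chosen with earlier results of these data known. Beside the members, the genes named are, per list, that of highest FPKM and those of the 2 smallest p, with the nearest profiles of NFKBIA and CXCL8. TNF, IL1B, CXCR6 and some identity markers were chosen after their values were seen. Promoter sequences are RefSeq's on GRCh38.p14.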

Additional observations from a re-analysis of the deposited data

How the results depend on the processing

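The count of called members and of called pathway genes was 0 under each of the 15 alternatives, by edgeR, DESeq2 and limma, and the members' adjusted p was at least 0.574 throughout. The count over all genes was 0 except with the replicate block (3) and in the fits that leave out 1 library, where it was 0 to 5. Same-numbered libraries correlated at 0.05, 0.03 and 0.10 in their deviations, and differently numbered libraries at -0.086 to 0.035. The labels state no pairs and the numbers were not taken as pairs, which these values do not settle. The replicate block changed no call of a member. Genes at an unadjusted p under 0.05 numbered 1081 with no filter, 307 at a mean FPKM of at least 5, and 411 to 1409 with 1 library left out. NFKB2 had 0.0017 at a mean FPKM of at least 5. With 1 library left out, the median of the members was -0.0477 (without GIA library 1) to 0.0419. The cause was not tested. The log2 fold changes that turned sign ranged from -0.033 to 0.0891 for NFKBIA, -0.0648 to 0.109 for RELB, -0.0477 to 0.013 for NFKB2, -0.212 to 0.0419 for CXCL2 and -0.0247 to 0.0485 for CXCL16. For other pathway genes they ranged from -0.0079 to 0.0582 for TAB2, -0.299 to 0.0358 for IL6, -0.0148 to 0.349 for CCL5, -0.16 to 0.18 for ACKR3 and -0.0188 to 0.0324 for ADAM10. Without a change of sign, IL18 ranged from -0.103 to -0.0014, NFKB1 from -0.117 to -0.0191, REL from -0.178 to -0.0106, TAB1 from -0.103 to -0.0127, ADAM17 from -0.141 to -0.0283, BCL3 from 0.0357 to 0.149 and CXCL11 from -0.433 to -0.0485. CXCL8 and CCL20 fell under the filter on low values, with means of 0.362 and 0.00668 FPKM, and their values rest on few counts.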
